A study of Mus musculus with 5 samples.

Results

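The basement membrane is the sheet of laminin, collagen IV, nidogen and perlecan that underlies the epithelium of the early pancreatic bud, and integrins are the receptors that bind it. Its genes were followed here in the dorsal pancreas of E10.5 mouse embryos, Ptf1a null against heterozygote. Ptf1a encodes a DNA-binding factor that pancreas formation depends on. The 39 genes were chosen by name: 9 laminin chains, 6 collagen IV chains, 8 other basement membrane proteins and linkers, 10 integrin alpha subunits and 6 integrin beta subunits. All 39 had a probe set annotated to 1 gene symbol, out of 18193 such genes on the array, and the brightest probe set by mean log2 signal over the 5 arrays stood for each gene.

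There were 3 Ptf1a null pools and 2 Ptf1a heterozygote pools, both in the C57BL/6J strain and both from timed matings of heterozygous parents. Each pool held 3 buds, freed of mesenchyme by mechanical dissection, and its RNA was amplified in 2 rounds before hybridisation to an Affymetrix mouse array. The heterozygotes also carry 1 mutant allele, and no wild-type pool was analysed here. Neither the altered part of Ptf1a nor the litters behind each pool are stated, so a p-value here reflects only how these pools scatter.

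Laminins are trimers of an alpha, a beta and a gamma chain that self-assemble on the cell surface. Collagen IV forms a second network of triple-helical chains, and nidogens and perlecan (Hspg2) link the networks. Integrins are pairs of 1 alpha and 1 beta subunit: those with Itga3, Itga6 or Itga7 bind laminins, those with Itga1 or Itga2 bind collagens, those with Itga5, Itga8 or Itgav bind proteins with an Arg-Gly-Asp motif, and Itgb1 is the partner shared by most of them. In the embryonic pancreas, contact with laminin and integrin function are known to shape epithelial growth and differentiation.

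The labels were checked on Ptf1a, which had log2 signals of 5.21, 6.07 and 5.00 in null pools, against 7.10 and 7.33 in heterozygote pools. Its log2 change was -1.79 (SE 0.47), without passing the test over all probe sets (limma adjusted p = 0.651). Every null pool was below both heterozygote pools, although where the probes lie relative to the altered part is not known. Median deposited signal was 13.7 to 16.4 on null arrays and 14.4 to 17.5 on heterozygote arrays, and having 5 arrays limits all precision. All 10 markers of bud epithelium, among them Pdx1 and Cdh1, were above background on all 5 arrays, where background is the 95th percentile of 27 bacterial control probe sets on each array. Of 17 mesenchyme markers, 15 were higher in null pools (median log2 change 0.56), with a summed linear signal of 2204 to 2727 in null pools and 1754 to 2302 in heterozygote pools. Of these 17, 8 were above background on all arrays and Twist1 on none. Of 11 endothelium markers 5 were higher in null pools, with a summed signal of 205 to 484 in null pools and 273 to 454 in heterozygote pools. All 8 erythroid markers were lower in null pools (7960 to 8854 in null pools and 9552 to 11989 in heterozygote pools). Leukocyte and platelet markers summed to 153 to 285 in null pools and 199 to 366 in heterozygote pools, with 2 of 8 higher in null pools. So were 1 of 5 mesothelium markers and 2 of 4 neural crest and glia markers. The part of other cell types in the values below was not tested, and in pools of tissue, fewer cells of a type and less RNA per cell cannot be told apart.

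The comparison asks whether loss of Ptf1a changed the transcripts of the sheet under the bud and of its receptors. No member passed the test. Across all 45037 probe sets the limma fit with 1 common prior variance, called untrended here, called 0 at an adjusted p under 0.05 (0% of those tested), with 2484 (5.52%) at an unadjusted p under 0.05. The fit that lets the prior variance follow signal, called trended, called 8 (0.0178%). Of the members' 91 probe sets, 0 were called in either fit, 6 had an unadjusted p under 0.05 in the untrended fit, and the lowest adjusted p was 0.363 untrended and 0.976 trended. In all, 3 of the 39 members had an unadjusted p under 0.05 in the untrended fit: Col4a3, Col4a4 and Itgb4. So did 813 of all 18193 genes, each taken by its brightest probe set. All 3 fell outside the 29 members with signal over background on each of the 5 arrays. Among the 10376 genes that bright, 147 had such a p. Of the 39 members 19 were higher and 20 lower in null pools, with a median log2 change of -0.03, beside -0.01 over all genes. That split was 14 higher and 25 lower with median centring, and 12 higher and 27 lower without normalisation between arrays.

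The 2 genotypes did not overlap for 7 members (17.9% of 39), beside 19.9% of all 18193 genes represented in the same way. In 5 members every null pool lay above both heterozygote pools and in 2 every null pool lay below them, beside 9.82% and 10.1% of all genes. The members' share is near that of all genes. Among the members' 91 probe sets, 9 lay higher and 5 lower in every null pool, beside 9.90% and 10.1% of all probe sets. Several probe sets were annotated to 28 members, and in 18 of these at least 1 differed in sign from the brightest. In 9 such cases both probe sets were above background on all arrays.

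Signal exceeded background on every array for 29 of the 39 members and on no array for 4. Among the 29, log2 changes ran from -0.45 for Col15a1 to 0.98 for Nid2, and 18 lay within 0.25 of no change. Their median absolute log2 change was 0.16, beside 0.23 for the 10376 genes above background on all arrays, whose median log2 signal was 6.56, against 6.49 for the members. The plot of change against signal shows that the 4 members with a change beyond 1 in either direction had a mean log2 signal in the range where all genes scattered widely.

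**Figure D1:**
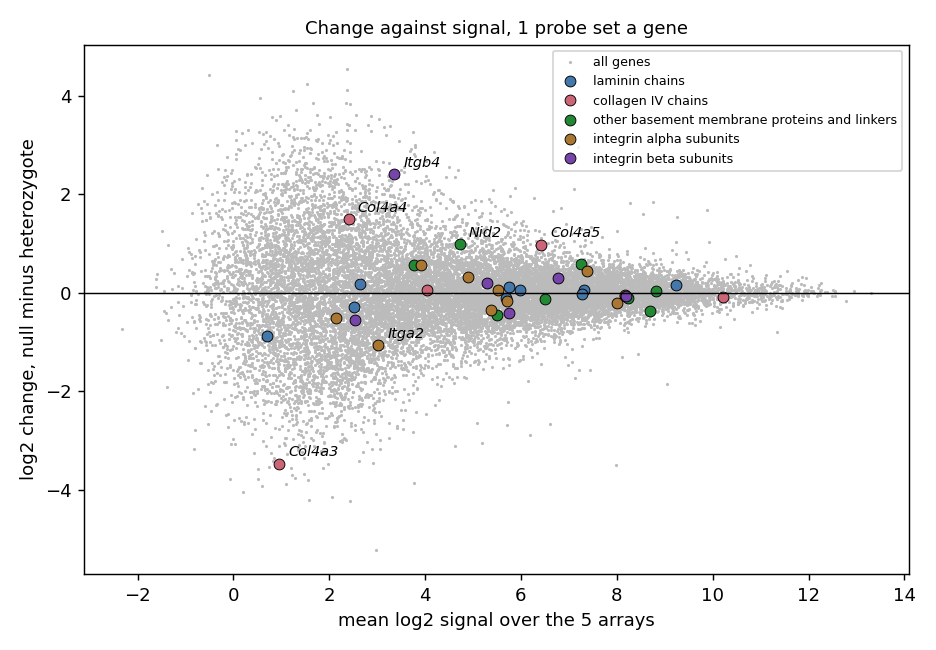
Log2 change, null minus heterozygote, against mean log2 signal over the 5 arrays, for all 18193 genes (grey) and the 39 members (coloured by list). Itgb4, Col4a4, Itga2 and Col4a3 lie beyond a change of 1 at low signal, and the 29 members above background on all arrays lie between -0.45 and 0.98.

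Of 9 laminin chains 5 were higher and 4 lower in null pools, with a median log2 change of 0.05, which was -0.10 without normalisation between arrays. Lama1, Lamb1 and Lamc1 encode the chains of the main embryonic laminin. Lama1 had log2 signals of 7.35, 7.38 and 7.28 in null pools and 7.27 and 7.29 in heterozygote pools. The pools lay close together, and the 95% interval of the log2 change of 0.06 ran from -0.79 to 0.91 in the untrended fit and from -0.52 to 0.63 in the trended fit. Lamb1 had 9.31, 9.36 and 9.22 in null pools and 8.94 and 9.33 in heterozygote pools, a log2 change of 0.16 (-0.75 to 1.06). Lamc1, the gamma chain, had 7.40, 6.80 and 7.59 in null pools and 7.30 and 7.28 in heterozygote pools, a log2 change of -0.03 (-1.07 to 1.02). Null replicate 2 was the lowest of the 5 pools for Lamc1, and the genotypes overlapped for all 3 genes.

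Lama5, another epithelial alpha chain, had a log2 change of 0.12 (null mean 5.79 ± 0.41, SD, n = 3, and heterozygote mean 5.67 ± 0.04, SD, n = 2). Lamb2, an alternative beta chain, had 0.05. Lama3 and Lamb3, chains of the laminin of hemidesmosomes in stratified epithelia, were at or near background: Lama3 was above it on 0 arrays and Lamb3 on 3. Lama2, best known from muscle, was above background on 0 arrays (log2 change -0.88). The probe sets of Lamb1 disagreed: 1446180_at lay above both heterozygotes in every null pool (log2 change 0.49) and 1424113_at lay below them (-0.28), while 1451241_at overlapped at 0.14. A second probe set of Lama3, 1427512_a_at, was below background on all arrays with a log2 change of -1.32, and 1423885_at of Lamc1 had 0.24.

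Collagen IV chains had 3 of 6 members higher and 3 lower in null pools, with a median log2 change of -0.01. Col4a1 and Col4a2 encode the chains of the common collagen IV trimer and lie head to head in the genome. Their RefSeq promoter windows of 300 bases (GRCm38.p6) are shown because they overlap: Col4a1 at chr8:11312777-11313076 on the minus strand and Col4a2 at chr8:11312555-11312854 on the plus strand share 78 bases, in capitals.
Col4a1: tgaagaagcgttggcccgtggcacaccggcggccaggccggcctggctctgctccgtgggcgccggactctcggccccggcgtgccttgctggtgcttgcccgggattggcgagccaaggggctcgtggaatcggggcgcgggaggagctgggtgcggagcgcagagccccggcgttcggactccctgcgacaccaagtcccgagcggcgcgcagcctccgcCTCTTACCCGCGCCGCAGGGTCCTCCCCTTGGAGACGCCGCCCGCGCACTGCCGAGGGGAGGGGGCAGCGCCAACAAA
Col4a2: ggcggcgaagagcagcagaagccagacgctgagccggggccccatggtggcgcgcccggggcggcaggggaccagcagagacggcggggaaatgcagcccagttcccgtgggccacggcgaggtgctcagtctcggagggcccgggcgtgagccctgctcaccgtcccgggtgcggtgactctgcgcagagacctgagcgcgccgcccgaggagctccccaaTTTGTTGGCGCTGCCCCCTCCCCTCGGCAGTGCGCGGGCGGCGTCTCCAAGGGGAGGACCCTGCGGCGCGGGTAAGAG

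Col4a1 had log2 signals of 9.89, 10.24 and 10.40 in null pools and 10.38 and 10.14 in heterozygote pools. Col4a2 had 7.90, 8.23 and 8.31 in null pools and 8.24 and 8.19 in heterozygote pools. Both genes were lowest on null replicate 1 and highest on null replicate 3, and both had overlapping genotypes. Their log2 changes were -0.08 (95% interval -1.03 to 0.86) for Col4a1 and -0.07 (-0.98 to 0.84) for Col4a2. The second probe set of Col4a1, 1426348_at, had 6.45, 7.28 and 6.85 in null pools and 6.04 and 6.28 in heterozygote pools, a log2 change of 0.70 without overlap (limma adjusted p = 0.991), so that the 2 probe sets of this gene disagreed.

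Col4a5 and Col4a6 are an X-linked head-to-head pair whose promoter windows lie 842 bases apart. Their pools had the same order within each genotype, and both were highest on null replicate 2. Col4a5 was lowest on heterozygote replicate 1 and Col4a6 on null replicate 3. Col4a5 had 6.83, 7.18 and 6.43 in null pools and 4.77 and 6.90 in heterozygote pools. Its log2 change of 0.97 (SE 0.74) rests on heterozygote replicate 1: without that pool it was -0.09, and without heterozygote replicate 2 it was 2.04. Its second probe set, 1425475_at, was also lowest on heterozygote replicate 1, at 3.64, against 3.81 to 5.27 in null pools. Col4a6 had 4.16, 4.59 and 3.43 in null pools and 3.99 and 4.05 in heterozygote pools, with a log2 change of 0.05.

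Col4a3 and Col4a4, whose chains form the collagen IV of the kidney glomerulus, had the most negative and the second most positive changes of all members and were at background. Col4a3 had log2 signals of -0.72, 0.07 and -0.64 in null pools and 3.46 and 2.63 in heterozygote pools. Only heterozygote replicate 1 was above background, so no fold is given (log2 change -3.47, SE 0.48, limma adjusted p = 0.363). Its other probe set, 1450224_at, had a log2 change of 1.32 and was above background on 0 arrays. Col4a4 had 2.86, 3.11 and 3.04 in null pools and 1.05 and 1.97 in heterozygote pools, below background on all 5 arrays (log2 change 1.49, adjusted p = 0.745). Its other probe sets, 1440250_at with -1.04 and 1445328_at with -0.36, were also below background, so neither gene had a level that could be compared.

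**Figure D2:**
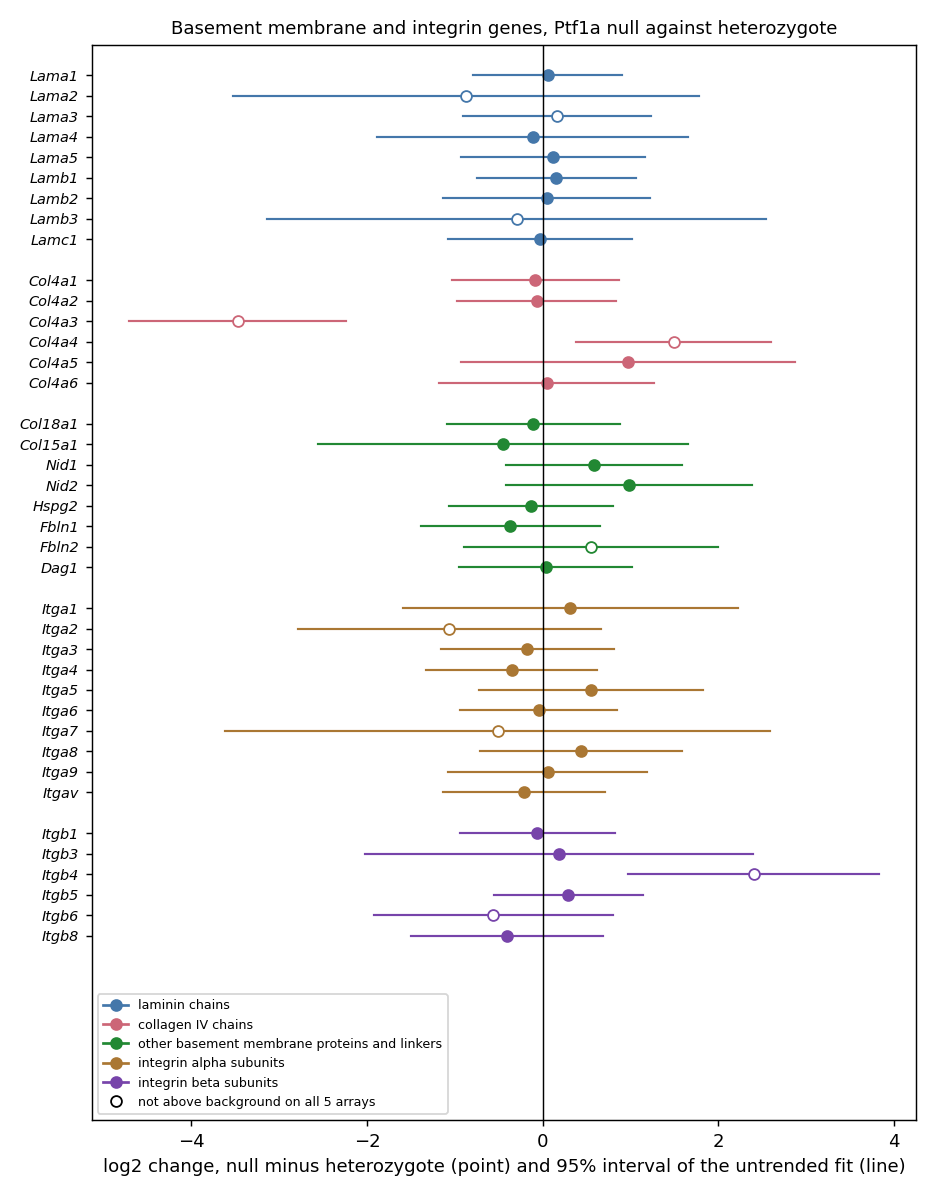
Log2 change, null minus heterozygote, of the 39 members by list, with 95% intervals of the untrended limma fit; open points were not above background on all 5 arrays. The intervals cover 0 for all members except Col4a3, Col4a4 and Itgb4.

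Among linkers and other basement membrane proteins 4 of 8 were higher and 4 lower in null pools (median log2 change -0.03, but -0.17 with median centring, -0.22 without normalisation and 0.15 without heterozygote replicate 2). The nidogens, which join the laminin and collagen IV networks, were both higher in every null pool than in either heterozygote pool. Nid1 had log2 signals of 7.16, 7.45 and 7.87 in null pools and 6.96 and 6.85 in heterozygote pools. Its log2 change was 0.59 (SE 0.39, limma adjusted p = 0.991). Nid2 had 4.97, 5.67 and 4.73 in null pools and 4.69 and 3.58 in heterozygote pools, a log2 change of 0.98 (SE 0.54, 1.98-fold, adjusted p = 0.983). For Nid2 null replicate 3 and heterozygote replicate 1 were nearly equal. Leaving out heterozygote replicate 2 gave a change of 0.43, and leaving out replicate 1 gave 1.54. The second probe set of Nid1, 1448469_at, overlapped between genotypes at a log2 change of 0.06, and 1441519_at had -0.10. Nidogens are made largely by mesenchyme in many organs. The median of the mesenchyme markers, relative to each marker's mean, was 0.56, 0.09 and 0.59 on null replicates 1 to 3. On heterozygote replicates 1 and 2 it was -0.16 and -0.57. Among null pools the order differed: Nid2 was highest on replicate 2, where the marker median was lowest. Nid1 was also higher on null replicate 2 than on replicate 1. A link between nidogens and mesenchyme content was not tested.

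Fbln1, a fibulin found in basement membranes and elastic fibres, was lower in every null pool than in either heterozygote pool. It had 8.61, 8.14 and 8.87 in null pools and 8.93 and 8.88 in heterozygote pools. Null replicate 3 and heterozygote replicate 2 nearly touched, and the log2 change was -0.37 (SE 0.39, limma adjusted p = 0.999), and -0.17 without null replicate 2. Probe set 1439688_at had -0.65 and 1422540_at had 0.42, both overlapping. Fbln2 had a log2 change of 0.55, with heterozygote replicate 1 below background.

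Perlecan (Hspg2), the heparan sulfate proteoglycan of the sheet, had 6.39, 6.72 and 6.22 in null pools and 6.50 and 6.63 in heterozygote pools (log2 change -0.13, 95% interval -1.06 to 0.81). Its probe set 1418670_s_at had 0.33. Col18a1, which yields endostatin, averaged 8.18 ± 0.26 in null pools (SD, n = 3) and 8.29 ± 0.31 in heterozygote pools (SD, n = 2), a log2 change of -0.10. Dag1, the dystroglycan receptor for laminin, had 8.81, 8.86 and 8.82 in null pools and 8.46 and 9.12 in heterozygote pools. The null pools lay between the 2 heterozygote pools, with a log2 change of 0.04 (-0.95 to 1.02), and 1423872_a_at had -0.15.

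For 3 members known from vessel walls, pools of 1 genotype lay farther apart than the group means. This also held for other members, such as Lamc1 and Dag1. Lama4, an alpha chain of endothelial basement membrane, had 4.60, 6.12 and 6.19 in null pools and 6.26 and 5.24 in heterozygote pools. Col15a1, a collagen of vessel and muscle basement membranes, had 4.15, 5.98 and 5.82 in null pools and 6.56 and 4.98 in heterozygote pools. Itgb3 pairs with Itga2b on platelets and with Itgav in vessels. It had 3.97, 5.72 and 6.42 in null pools and 5.69 and 4.69 in heterozygote pools. All 3 were lowest on null replicate 1 among nulls and lower on heterozygote replicate 2 than on replicate 1, and they were set side by side after their values were seen. The median of the endothelium markers, relative to each marker's mean, was -0.51, -0.30 and 0.77 on null replicates 1 to 3, and 0.64 and -0.20 on heterozygote replicates 1 and 2. On null replicate 2 the endothelium markers were low while the 3 members were above their mean. The second probe set of Lama4, 1424808_at, did not share this order: it was lowest on null replicate 2, at 4.08, against 4.92 on null replicate 1. Log2 changes were -0.11 (SE 0.68) for Lama4, -0.45 (SE 0.82) for Col15a1 and 0.18 (SE 0.86) for Itgb3. A link between these members and endothelium content was not tested.

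**Figure D3:**
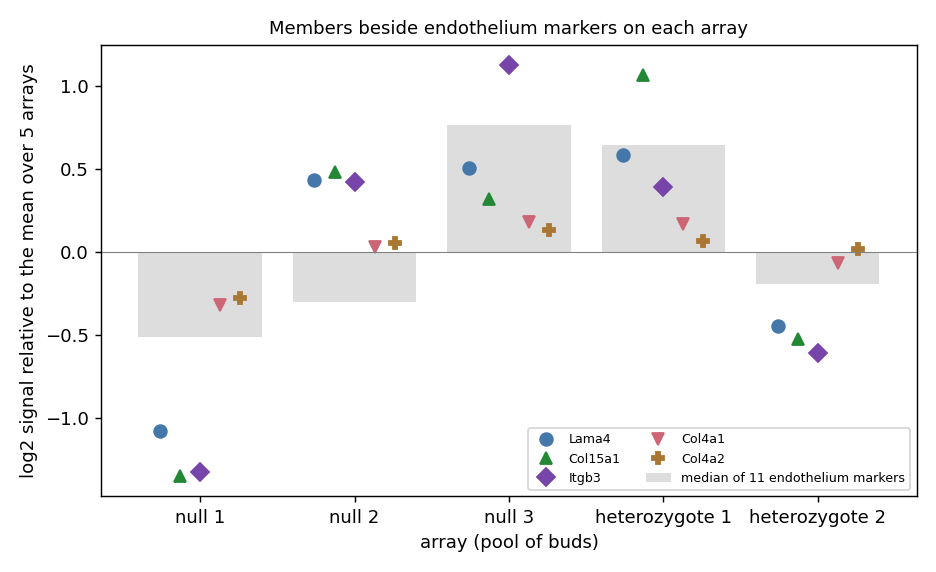
Log2 signal on each array relative to the mean over 5 arrays for 5 members (points) and the median of 11 endothelium markers (grey bars). Lama4, Col15a1 and Itgb3 are lowest on null replicate 1, where the marker median is -0.51, and Col4a1 and Col4a2 vary less.

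Integrin alpha subunits had 4 of 10 members higher and 6 lower in null pools, with a median log2 change of -0.11 and 0 members without overlap. Itga6, the main epithelial laminin receptor subunit, had 8.08, 8.36 and 8.02 in null pools and 8.25 and 8.15 in heterozygote pools. Its log2 change was -0.05 (95% interval -0.94 to 0.85), and the second probe set, 1422445_at, had -0.09. Itgav had 7.79, 7.79 and 8.18 in null pools and 8.05 and 8.21 in heterozygote pools (-0.21), although 1421198_at had 0.43. Itga3, another laminin receptor subunit, had -0.17 and its probe set 1421997_s_at, above background on 1 array, had 0.44. Itga8, a receptor subunit for nephronectin known from mesenchyme, had 7.21, 7.83 and 7.59 in null pools and 7.52 and 6.69 in heterozygote pools (0.44), and 1427489_at had -0.67 with the genotypes overlapping. The 0.44 rests on heterozygote replicate 2: it was 0.03 without that pool and 0.85 without replicate 1.

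Itga4 and Itga5, which bind fibronectin, could not be settled by their probe sets. The 5 probe sets of Itga4 had log2 changes from -1.09 to 2.93, with -0.35 at the brightest. Of the 3 that were higher in null pools, 1456498_at had 1.22, above background on 4 arrays and with overlapping genotypes. Probe set 1450155_at was above background on 2 of 3 null arrays and on 0 heterozygote arrays (limma adjusted p = 0.958). Its genotypes overlapped, with null replicate 2 at 2.66 and heterozygote replicate 1 at 2.93. With heterozygote pools set at background, its mean was 1.44-fold higher in null pools. The third, 1427615_at, with 2.93, was below background on all arrays. Itga5 had 0.55 at 1458996_at, while 1457561_at had 1.52, 1.61 and 2.40 in null pools, all below background, and 4.11 and 3.86 in heterozygote pools. With null pools set at background, the mean of 1457561_at was 1.84-fold lower in null pools (limma adjusted p = 0.469). Probe set 1423268_at had 1.67 with overlapping genotypes. The collagen receptor subunits Itga1 and Itga2 had 0.32 and -1.06, and Itga2 was above background on 1 of 3 null arrays and on both heterozygote arrays. Itga9 had 0.06, with -0.14 at 1450029_s_at and -0.39 at 1420860_at. Itga7, best known from muscle, was above background on 2 arrays (-0.51).

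Integrin beta subunits had 3 of 6 higher and 3 lower in null pools (median log2 change 0.06, but -0.05 with median centring and -0.10 without normalisation). Itgb1, the shared partner, had 8.34, 8.07 and 8.10 in null pools and 8.17 and 8.30 in heterozygote pools. Its log2 change was -0.06 (95% interval -0.94 to 0.82), and 1426918_at had 0.07 with null pools at 8.06, 8.14 and 8.02 and heterozygote pools at 7.97 and 8.03. Its other 4 probe sets had -0.48 to 0.51 (0.19 at 1426920_x_at and 0.51 at 1438119_at), and 3 of them were above background on at most 1 array. Lama1, Col4a2, Itga6 and Itgb1 were the 4 members whose untrended interval lay wholly within a 2-fold change in either direction. In the trended fit 16 of the same 29 brighter members met this.

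Itgb4, the partner of Itga6 in hemidesmosomes, differed most among the beta subunits. It had log2 signals of 4.19, 4.67 and 4.10 in null pools, all above background, and 2.62 and 1.22 in heterozygote pools, both below it. The signal was at least 2.23-fold higher in null pools, from a null mean of 4.32 ± 0.31 (SD, n = 3) against a heterozygote mean of 1.92 ± 0.99 (SD, n = 2). The log2 change of 2.40 (SE 0.55) did not pass (limma adjusted p = 0.557 untrended and 0.976 trended), and the gene has 1 probe set. Its partner Itga6 had a log2 change of -0.05, and Plec, which anchors Itgb4 to keratin filaments, had a log2 change of -0.59 with every null pool below both heterozygote pools. Of the 10 epithelium markers, 3 were higher and 7 lower in null pools (median log2 change -0.18). The keratins Krt8 (0.44) and Krt18 (0.67) were higher in every null pool, and Pdx1 (-0.51) and Nkx6-1 (-0.97) were lower in every null pool. The laminin ligand chains of hemidesmosomes, Lama3 and Lamb3, had log2 changes of 0.17 and -0.30 near background.

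Itgb5, which pairs with Itgav, lay higher in every null pool, with a small spread. It had 6.95, 6.85 and 6.86 in null pools and 6.58 and 6.60 in heterozygote pools, a log2 change of 0.29 (SE 0.33, 1.23-fold, limma adjusted p = 0.999). Probe set 1456195_x_at also had every null pool above both heterozygotes (0.90), 1456133_x_at overlapped at 0.46, and 1417534_at had -0.12. Itgb8, the Itgav partner that activates TGF-beta, had 5.59, 5.91 and 5.25 in null pools and 5.67 and 6.31 in heterozygote pools (-0.41). Leaving out heterozygote replicate 2 gave -0.08, and leaving out replicate 1 gave -0.73. Itgb6, an epithelial partner of Itgav, was above background on 0 arrays (-0.56).

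**Figure D4:**
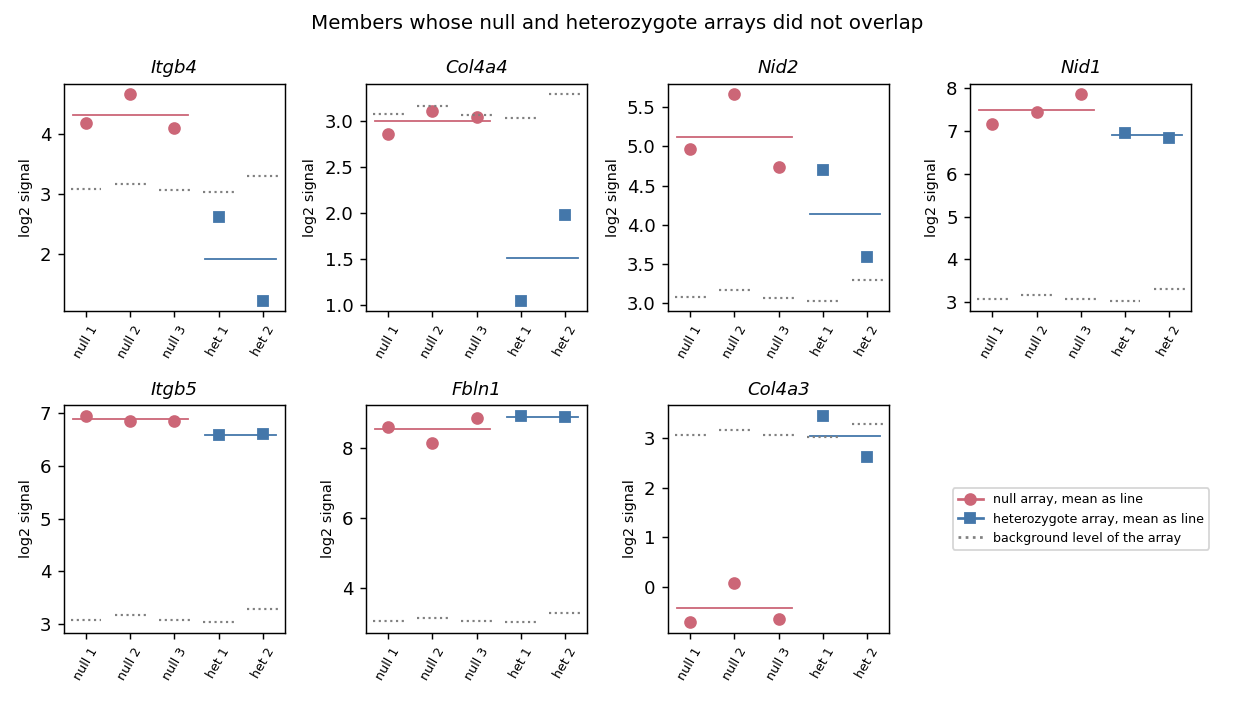
Log2 signal on each array for the 7 members whose genotypes did not overlap (red circles null, blue squares heterozygote, lines group means, dotted lines the background level of each array). Col4a3 and Col4a4 lie at or below background on nearly all arrays, and Nid1, Nid2, Itgb5 and Fbln1 differ by less than 1 log2 unit between group means.

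Ptf1a binds DNA in a complex that recognises an E-box (CANNTG) together with a TC-box (TTTCCCA). Both motifs were searched on both strands of the 300-base RefSeq promoter windows, of which 35 were given for 29 members, each motif counted whether or not it overlapped the other. An E-box stood in 25 of the 35 (71.4%), beside 72.3% of all 32851 windows. A TC-box stood in 3 (8.57%), those of Dag1, Fbln1 and Hspg2, beside 8.06% of all windows. The windows of Itgb5 (chr16:33829415-33829714, plus strand) and Fbln1 (chr15:85205699-85205998, plus strand) are shown, the first as a member with every null pool higher and the second as a member with every null pool lower. Capitals mark E-boxes, 3 in Itgb5 and 2 in Fbln1, and the 1 TC-box of Fbln1. The other window of Fbln1 (chr15:85205758-85206057) held 2 E-boxes and 0 TC-boxes. The spacing between E-boxes and TC-boxes was not examined. The windows of Col4a1 and Col4a2 printed above held neither motif, nor did that of Nid1. A match is a description of letters and does not show binding.
Itgb5: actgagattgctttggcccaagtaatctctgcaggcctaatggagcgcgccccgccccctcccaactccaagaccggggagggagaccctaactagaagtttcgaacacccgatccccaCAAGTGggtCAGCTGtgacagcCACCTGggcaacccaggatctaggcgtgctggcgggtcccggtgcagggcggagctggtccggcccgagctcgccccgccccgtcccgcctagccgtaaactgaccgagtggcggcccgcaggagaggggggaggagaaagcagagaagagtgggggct
Fbln1: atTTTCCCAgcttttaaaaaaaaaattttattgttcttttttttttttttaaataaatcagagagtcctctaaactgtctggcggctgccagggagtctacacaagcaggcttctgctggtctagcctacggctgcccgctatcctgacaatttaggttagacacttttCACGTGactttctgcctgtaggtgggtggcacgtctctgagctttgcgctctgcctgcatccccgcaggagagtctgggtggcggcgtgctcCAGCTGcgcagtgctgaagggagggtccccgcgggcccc

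Other genes of the same systems were given from lists, and 0 of their members passed in either fit. Of 17 further basement membrane and receptor genes 8 were higher and 9 lower (median log2 change -0.02), with the lowest p for Frem2, of the Fraser complex under epithelia (-0.74), and Dmd, dystrophin, which binds dystroglycan inside the cell (-0.95). Of 12 collagen processing and crosslinking genes 9 were higher (median 0.22), led by the prolyl hydroxylases P4ha1 (1.26) and P4ha2 (0.70). P4ha1 had every null pool above both heterozygotes (limma adjusted p = 0.915).

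Of 10 integrin ligands of the interstitial matrix 7 were higher in null pools (median log2 change 0.29). Vtn, vitronectin, the classical ligand of Itgav with Itgb3 or Itgb5, had 6.78, 6.79 and 6.18 in null pools and 8.05 and 8.26 in heterozygote pools. Every null pool lay more than 1 log2 unit below both heterozygotes, and the log2 change of -1.57 (SE 0.39) did not pass (limma adjusted p = 0.619 untrended and 0.254 trended). Postn, periostin, had 1.10, and Fn1, fibronectin, chosen after its values were seen, had 10.70, 11.09 and 10.56 in null pools and 9.78 and 10.32 in heterozygote pools (0.74, adjusted p = 0.98 untrended and 0.811 trended). Postn, Col1a1 (0.68), Col1a2 (0.45) and Col3a1 (0.56), all higher by group mean in null pools, also stand among the mesenchyme markers.

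The machinery that couples integrins to actin was split evenly, with 8 of 16 genes higher and 8 lower (median log2 change 0.05). Its lowest p values were those of Plec (-0.59) and the kinase Src (-0.48), both lower in every null pool. Of 13 matrix proteases and inhibitors 8 were higher (median 0.06), with the lowest p for Timp1, an inhibitor of matrix metalloproteases (0.88), and Mmp11 (0.53). Of 9 further integrin genes 4 were higher and 5 lower (median -0.10), and 3 were above background on all arrays. The lowest p values were those of Itgax, a leukocyte subunit above background on 1 array (-1.70), and the collagen receptor subunit Itga10 (0.94), both with overlapping genotypes.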

How the data were processed

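The deposited values are intensities on a linear scale, 1 per probe set, for 45101 probe sets on each of 5 arrays. The programs GCOS and RMA appear, without versions or roles, in the submitters' processing notes. No source states how background was subtracted. Intensities were converted to log2 with nothing added and quantile normalised between arrays, after which 64 control probe sets were dropped. Symbols were taken from the platform's annotation, in which 34945 tested probe sets had 1 symbol, 932 several and 9160 none.

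Genotype was tested in limma 3.58.1 under R 4.3.3, with eBayes, two-sided, and Benjamini-Hochberg adjustment over 45037 probe sets (threshold 0.05), after tests on simulated data. A trended, robust eBayes was the other fit. A fold bound sets a group below background on every array at the background level. It compares group means and leaves out the scatter of the pools.

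The members, gene lists and tests were chosen with earlier results of these data known. By rule, every member is accounted for, with values on each array for the brightest member of each list and for non-overlapping members above background. Probe sets of opposite sign are named, and in the other lists the 2 genes with the lowest p. Further values on each array were chosen after they were seen. Alternatives were median centring, no normalisation, an offset of 16, a filter for signal above background on at least 2 arrays, values raised to background, a replicate block, the mean over probe sets and leaving out each array.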

Additional observations from a re-analysis of the deposited data

How the results depend on the processing

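In none of the alternatives was a member called, and the lowest adjusted p of a member was 0.348, with median centring. The trended variance called 8 probe sets, none of them a member's. Of the 39 members, 12 kept their sign in every alternative. Whether same-numbered arrays share a litter or batch is not stated. Deviations of same-numbered arrays from their group means correlated at -0.0167 and 0.008, which cannot settle this with so few arrays. Median deposited signal was 17.5 on heterozygote and 16.4 on null replicate 1, and 14.4 and 13.7 on replicate 2. On null replicate 3 it was 16.3. The replicate block used replicates 1 and 2 of each genotype. Under the block 13 members did not overlap, and leaving out an array gave 12 to 18, where fewer arrays make separation commoner (32.3% to 53.1% of all probe sets, beside 20.0% on 5 arrays). Signal near background limits Col4a3, Col4a4 and the heterozygote side of Itgb4.

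Without normalisation the median of all probe sets was -0.117, beside -0.0099. The median log2 change of the laminin chains was then -0.101, of the other basement membrane proteins -0.216 and of the integrin beta subunits -0.0979. Median centring gave -0.171 for the other basement membrane proteins and -0.0534 for the beta subunits. The beta subunits also had 0.184 without dim probe sets, -0.122 under the replicate block and 0.202 with the mean over probe sets. Leaving out an array gave -0.0544 to 0.171 for the laminin chains, -0.0386 to 0.154 for the other basement membrane proteins and -0.122 to 0.0766 for the beta subunits.

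The sign of a member's log2 change turned in these cases, with the cause not tested. Median centring gave Lama1 -0.0566, Lamb1 -0.0055, Lamb2 -0.0257, Dag1 -0.11 and Itga9 -0.0293. No normalisation gave Lama1 -0.10, Lama5 -0.0164, Lamb1 -0.05, Lamb2 -0.0703, Col4a6 -0.0183, Dag1 -0.16 and Itga9 -0.0739. Values raised to background gave Lama3 -0.0597 and Col4a4 -0.0597. The replicate block gave Lamb2 -0.15, Lamb3 0.65, Itga6 0.0219, Itga9 -0.0607 and Itgb3 -0.34. The mean over probe sets gave Lama3 -0.58, Lamc1 0.11, Col4a1 0.31, Hspg2 0.10, Itga4 0.95, Itga8 -0.12, Itga9 -0.16 and Itgb1 0.02. Leaving out 1 array gave ranges across 0 for 22 members: Lama2 -2.09 to 0.34, Lama3 -0.0544 to 0.39, Lama4 -0.63 to 0.40, Lama5 -0.052 to 0.35, Lamb1 -0.0406 to 0.36, Lamb2 -0.15 to 0.35, Lamb3 -1.01 to 0.65, Lamc1 -0.19 to 0.21, Col4a1 -0.20 to 0.0581, Col4a2 -0.15 to 0.0545, Col4a5 -0.0917 to 2.04, Col4a6 -0.22 to 0.36, Col18a1 -0.33 to 0.12, Col15a1 -1.25 to 0.34, Fbln2 -0.23 to 1.33, Dag1 -0.29 to 0.37, Itga1 -0.60 to 1.24, Itga6 -0.15 to 0.0219, Itga7 -1.98 to 0.95, Itga9 -0.24 to 0.35, Itgb1 -0.15 to 0.0021 and Itgb3 -0.34 to 0.88.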
